A study of Mus musculus with 6 samples.

Results

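Signals of 10 genes that encode chromatin-modifying proteins were followed in Th2 cells after knockdown of GATA3, after stimulation of the T cell receptor and after prolonged culture. The genes are Ezh2, Suz12 and Eed of Polycomb repressive complex 2 (PRC2), Bmi1 and Rnf2 of Polycomb repressive complex 1 (PRC1), Kmt2a and Men1 of the Trithorax-type MLL complex, Chd4 and Mta2 of the NuRD complex, and the acetyltransferase gene Ep300. They were taken by name, with every array probe set that names the gene alone. All 10 were measured, out of 18194 genes on the array, by 26 of the 34958 probe sets that name 1 gene.

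Polycomb and Trithorax proteins keep genes silent or active through cell division by opposite marks on histone H3. PRC2, in which EZH2 is the methyltransferase and SUZ12 and EED are needed for its activity, methylates lysine residues of histone H3 at silent genes, and PRC1 ubiquitylates histone H2A through RNF2 with BMI1 as its partner. The MLL protein KMT2A, tethered by menin, methylates another lysine of histone H3 at active genes, NuRD joins the nucleosome remodeler CHD4 with deacetylases and MTA proteins, and EP300 acetylates histones at active enhancers. In helper T cells EZH2 restrains cytokine genes outside their lineage, menin with KMT2A maintains Gata3 expression in Th2 cells, and CHD4 binds GATA3.

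The cells were splenic CD4 T cells of C57BL/6 mice aged 6 to 8 weeks, with no transgene or deletion in any group. Th2-1st cells had been cultured for 5 days with anti-TCR and anti-CD28 antibodies, 25 U/ml IL-2 and 100 U/ml IL-4, and the labels call them Th2 cells. Th2-4th cells had passed through further cycles of rest without cytokines and restimulation with anti-TCR antibody, IL-2 and an antibody against IL-4, up to 4 weeks in all, so the 2 cultures differ in age and in exposure to IL-4. The 3 arrays of a culture were made from cells given GATA3 siRNA by nucleofection and then stimulated for 4 h with immobilized anti-TCR antibody, from cells given control siRNA and stimulated likewise, and from cells given control siRNA and left unstimulated. The siRNA was delivered 24 h before harvest, 1 GATA3 siRNA served both cultures, and some labels call the control cells mock-transfected. Each condition thus had 1 array, and no source used here says whether the arrays of a culture came from 1 pool of cells. With no replicates, no difference below could be checked against replicate error, and none has a p-value.

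Each value is the deposited signal of a probe set on a linear scale, and signals are compared between arrays for 1 probe set, never between genes. A log2 ratio under -1 or over 1, that is a ratio under 0.5 or over 2, is called past 2-fold. The spread quoted beside some ratios is a robust SD of the log2 ratio among the 500 genes nearest in signal in the same pair of arrays, which holds real changes too and is no replicate error. The arrays had been scaled to 1 common trimmed mean, and their medians lay between 61.8 and 74.2. The signal of Gata3 was 2853 in GATA3 siRNA and 9261 in control stimulated Th2-4th cells (log2 ratio -1.70), and 1798 in GATA3 siRNA and 4883 in control stimulated Th2-1st cells (log2 ratio -1.44). All 8 measured T cell markers were above the array median on every array, whereas B cell markers reached it for 0 of 5 on the Th2-4th arrays and 1 of 5 on each Th2-1st array. Of 5 mast cell and basophil markers, 1 to 2 were above the median on the Th2-4th arrays and 0 to 1 on the Th2-1st arrays, with summed signals of 321 to 1230.2 in Th2-4th and 163 to 634 in Th2-1st cells. Mcpt8, a basophil protease gene, had 171 in GATA3 siRNA, 873 in control stimulated and 183 in control unstimulated Th2-4th cells, against 5.81 in GATA3 siRNA, 7.63 in control stimulated and 3.01 in control unstimulated Th2-1st cells. Cpa3 differed less between the cultures. It had 44.9 in GATA3 siRNA, 320 in control stimulated and 582 in control unstimulated Th2-4th cells. In Th2-1st cells it had 67.7 with GATA3 siRNA, 255 in control stimulated and 562 in control unstimulated cells. Fcer1a, Kit and Ms4a2 were below the median on all arrays. Whether mast cells or basophils were present, and their part in the ratios, was not tested. In a bulk sample fewer cells of a type and less RNA per cell cannot be told apart.

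The start-site regions of the PRC2 genes are shown because Ezh2 and Suz12 had lower signals in Th2-4th than in Th2-1st control cells, while Eed differed little and Ezh1, the other methyltransferase gene of PRC2, had a higher signal at its brightest probe set. The windows run from 250 bases before to 50 bases after the start of the RefSeq transcript on mouse build GRCm38.p6, and all 10 genes matched a RefSeq window. Ezh2 lies on the minus strand (chr6:47594981-47595280), Suz12 on the plus strand (chr11:79992856-79993155), Eed on the minus strand (chr7:89980927-89981226) and Ezh1 on the minus strand (chr11:101226414-101226713). Capitals mark E2F-type letters (TTTCCCGC, TTTCGCGC, TTTGCCGC or TTTGGCGC) and the CCAAT box, each searched on both strands.
Ezh2: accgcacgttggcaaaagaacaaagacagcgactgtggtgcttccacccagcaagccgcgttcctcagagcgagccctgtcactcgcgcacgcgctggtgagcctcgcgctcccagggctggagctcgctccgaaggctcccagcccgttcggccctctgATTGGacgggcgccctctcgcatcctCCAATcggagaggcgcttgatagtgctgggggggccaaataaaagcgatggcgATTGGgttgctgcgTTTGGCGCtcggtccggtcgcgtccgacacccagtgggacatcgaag
Suz12: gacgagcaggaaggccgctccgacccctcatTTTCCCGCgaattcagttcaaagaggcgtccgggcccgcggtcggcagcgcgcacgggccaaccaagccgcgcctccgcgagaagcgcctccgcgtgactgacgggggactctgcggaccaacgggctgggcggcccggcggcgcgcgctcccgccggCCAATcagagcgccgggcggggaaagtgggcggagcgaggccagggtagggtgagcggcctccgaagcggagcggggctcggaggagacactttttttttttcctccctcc
Eed: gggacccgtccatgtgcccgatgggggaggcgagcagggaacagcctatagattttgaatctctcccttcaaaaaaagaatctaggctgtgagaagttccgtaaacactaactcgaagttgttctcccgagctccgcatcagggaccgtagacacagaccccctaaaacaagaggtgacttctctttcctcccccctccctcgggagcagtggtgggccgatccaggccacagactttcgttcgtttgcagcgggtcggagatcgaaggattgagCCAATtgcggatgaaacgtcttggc
Ezh1: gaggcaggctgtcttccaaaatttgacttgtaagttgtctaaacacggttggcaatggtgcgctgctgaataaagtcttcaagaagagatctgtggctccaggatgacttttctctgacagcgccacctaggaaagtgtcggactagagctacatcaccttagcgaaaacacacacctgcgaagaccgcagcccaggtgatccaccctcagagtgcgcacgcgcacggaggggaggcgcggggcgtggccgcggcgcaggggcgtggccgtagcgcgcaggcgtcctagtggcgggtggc
E2F-type letters stood in the Ezh2 window, where TTTGGCGC began at position 4, and in the Suz12 window, where TTTCCCGC began at position -219, with the start base counted as 1 and the base before it as -1. These were 2 of the 10 genes, against 2.3% of all 32851 RefSeq windows of 300 bases. The motifs were chosen with earlier results of these data known, so the counts here are no test of enrichment. A gene was counted when any of its windows matched, whereas the shares are per window. The CCAAT box was found 3 times for Ezh2 and also in windows of Suz12, Eed, Men1 and Chd4, which made 5 of 10 genes against 37.4% of all windows. GATA-type letters (AGATAA or AGATAG, and also TGATAA or TGATAG, not capitalised) occurred in the windows of Ezh2 and Chd4, or 2 of 10 genes against 29.8% of all windows. No searched motif overlapped another in these windows, the Ezh1 window held neither capitalised motif, and such matches describe letters and not binding.

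The 10 genes were well detected. The brightest probe set of each, which stands for the gene below, was above the array median on all 6 arrays, and so were 20 of the 26 probe sets. The other 6 probe sets were below the median on all arrays (1 for Eed, 3 for Rnf2) or on some (2 for Men1). Their log2 ratios reached -3.35 and 2.15 between GATA3 siRNA and control siRNA arrays, at signals of 2.10 to 142.0, and are given only as the limits of the dim probe sets.

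**Figure D1:**
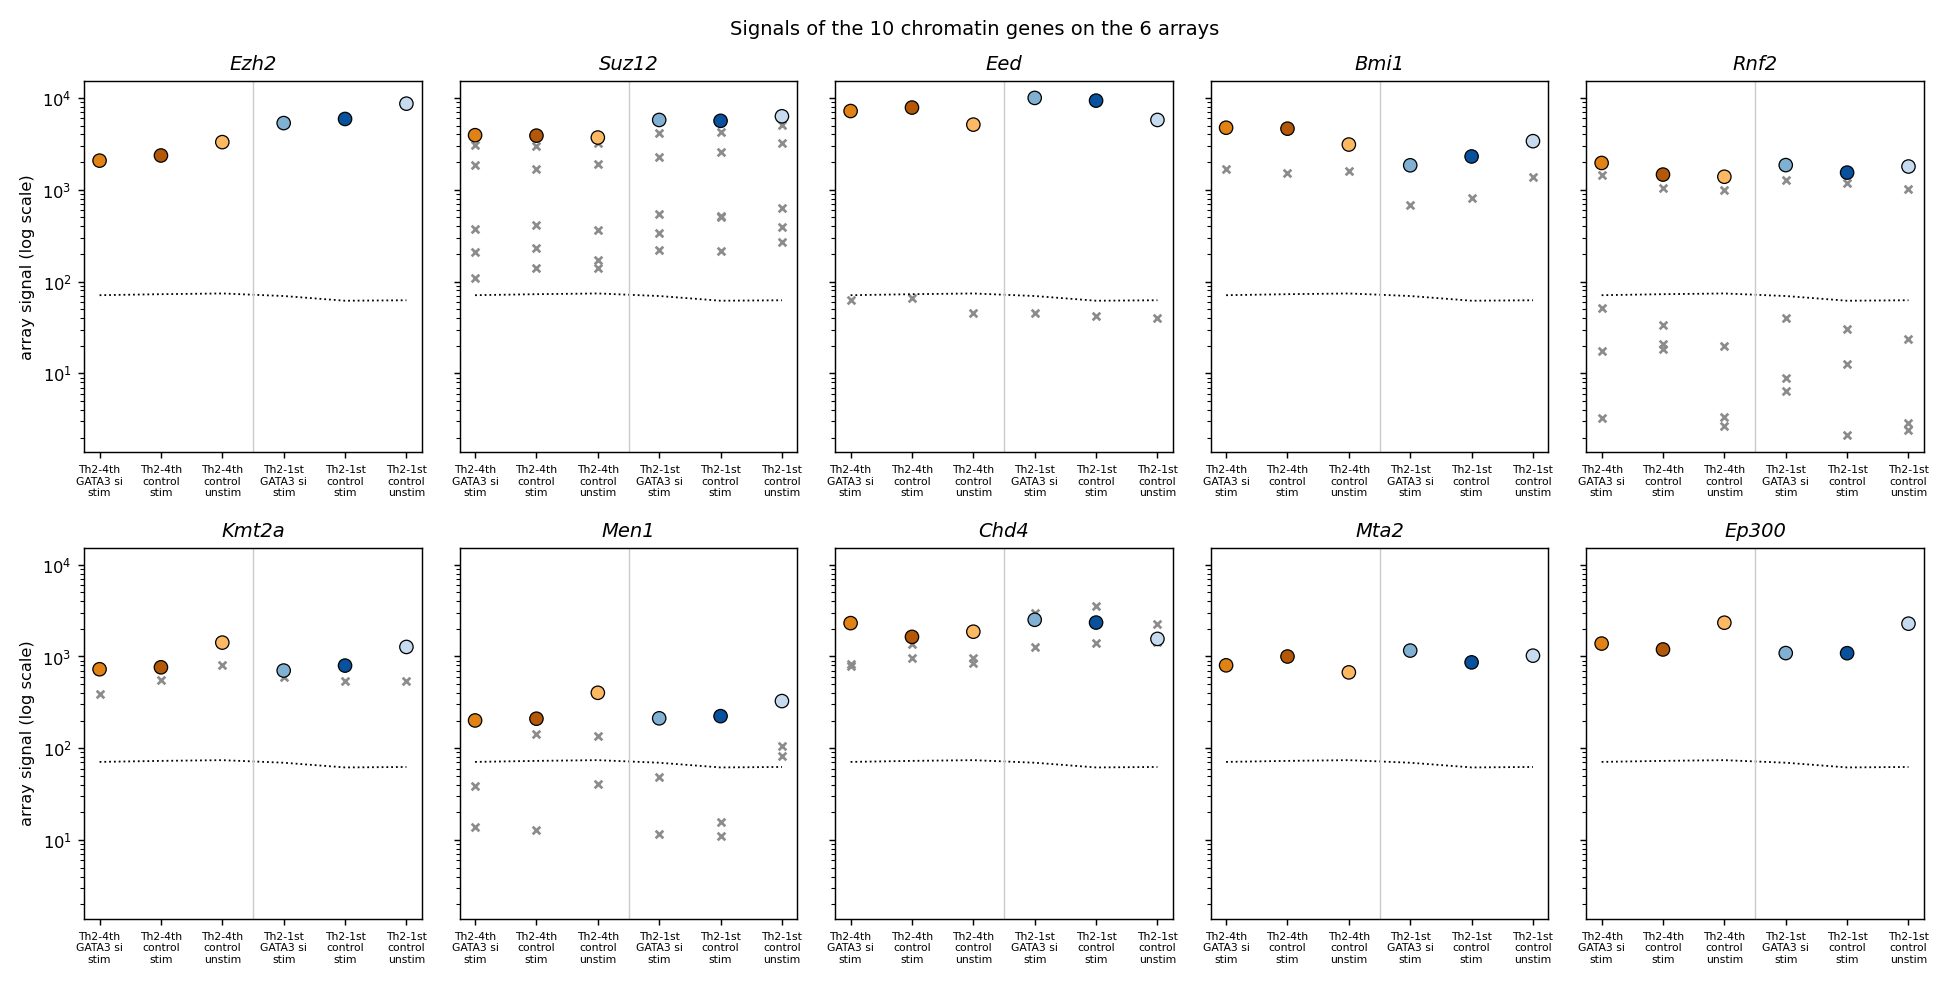
Signal of each of the 10 genes on the 6 arrays (vertical axis, array signal on a log scale; horizontal axis, GATA3 siRNA stimulated, control stimulated and control unstimulated cells of Th2-4th, left in orange, and of Th2-1st, right in blue). Filled circles are the brightest probe set, grey crosses the other probe sets and the dotted line the array median; Ezh2 lies between 2076 and 3303 in Th2-4th cells and between 5324 and 8664 in Th2-1st cells.

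Ezh2 had the widest range of the 10 genes, 2.06 on the log2 scale or 4.17-fold. Its 1 probe set gave 2076 in GATA3 siRNA, 2361 in control stimulated and 3303 in control unstimulated Th2-4th cells. The values in Th2-1st cells were 5324 with GATA3 siRNA, 5903 in control stimulated and 8664 in control unstimulated cells. All 3 Th2-4th arrays were thus below all 3 Th2-1st arrays, and in both cultures the unstimulated cells had the highest and the GATA3 siRNA cells the lowest signal.

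Suz12 kept a narrower range, 0.77 on the log2 scale, with the same separation of the cultures. The leading probe set read 3930 in GATA3 siRNA, 3886 in control stimulated and 3705 in control unstimulated Th2-4th cells. In Th2-1st cells it read 5758 with GATA3 siRNA, 5634 in control stimulated and 6313 in control unstimulated cells. Eed, whose protein reads the methyl mark that PRC2 writes, separated by stimulation instead. Its signals were 7203 in GATA3 siRNA, 7859 in control stimulated and 5123 in control unstimulated Th2-4th cells. Signals in Th2-1st cells were 10010.2 with GATA3 siRNA, 9348 in control stimulated and 5759 in control unstimulated cells, so the stimulated arrays were the higher ones in both cultures.

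Of the PRC1 genes, Bmi1 behaved differently in the 2 cultures at its leading probe set. Its leading probe set gave 4739 in GATA3 siRNA, 4629 in control stimulated and 3108 in control unstimulated Th2-4th cells, and 1847 in GATA3 siRNA, 2304 in control stimulated and 3383 in control unstimulated Th2-1st cells. At that probe set the stimulated arrays were therefore the high ones in Th2-4th and the low ones in Th2-1st cells. The second Bmi1 probe set read 1694 in GATA3 siRNA, 1508 in control stimulated and 1588 in control unstimulated Th2-4th cells. In Th2-1st cells it read 680 with GATA3 siRNA, 810 in control stimulated and 1392 in control unstimulated cells. Rnf2, the ubiquitin ligase gene, had the narrowest range (0.50 on the log2 scale). It read 1958 in GATA3 siRNA, 1463 in control stimulated and 1386 in control unstimulated Th2-4th cells, and 1856 in GATA3 siRNA, 1537 in control stimulated and 1791 in control unstimulated Th2-1st cells. In each culture the GATA3 siRNA array had the highest Rnf2 signal.

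At their leading probe sets the MLL genes were highest without stimulation. Kmt2a gave 726 in GATA3 siRNA, 762 in control stimulated and 1415 in control unstimulated Th2-4th cells, and 702 in GATA3 siRNA, 795 in control stimulated and 1269 in control unstimulated Th2-1st cells. For Men1, which encodes menin, the signals were 201 in GATA3 siRNA, 209.8 in control stimulated and 402 in control unstimulated Th2-4th cells, and 212 in GATA3 siRNA, 224 in control stimulated and 327 in control unstimulated Th2-1st cells. At these probe sets the unstimulated arrays stood above all stimulated arrays for both genes, in both cultures. Ep300 had the same order, with 1381 in GATA3 siRNA, 1192 in control stimulated and 2332 in control unstimulated Th2-4th cells. In Th2-1st cells Ep300 read 1088 with GATA3 siRNA, 1085 in control stimulated and 2276 in control unstimulated cells. The second Kmt2a probe set did not keep this order in Th2-1st cells. It read 600 with GATA3 siRNA, 543 in control stimulated and 544 in control unstimulated cells there.

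The NuRD genes shared no order at their leading probe sets. Chd4 gave 2308 in GATA3 siRNA, 1635 in control stimulated and 1861 in control unstimulated Th2-4th cells, and 2509 in GATA3 siRNA, 2339 in control stimulated and 1553 in control unstimulated Th2-1st cells. A fainter Chd4 probe set on the Th2-4th arrays read 786 in GATA3 siRNA, 1362 in control stimulated and 963 in control unstimulated cells, against 2955 in GATA3 siRNA, 3537 in control stimulated and 2261 in control unstimulated Th2-1st cells. The last Chd4 probe set read 821 in GATA3 siRNA, 958 in control stimulated and 841 in control unstimulated Th2-4th cells. In Th2-1st cells it read 1267 with GATA3 siRNA, 1416 in control stimulated and 1430 in control unstimulated cells. At both fainter probe sets all Th2-4th arrays were below all Th2-1st arrays, and at the leading one they were not. The probe sets of Chd4 thus disagreed on the order of the cultures. Mta2, a scaffold subunit of NuRD, had 800.5 in GATA3 siRNA, 999 in control stimulated and 671 in control unstimulated Th2-4th cells, and 1159 in GATA3 siRNA, 862 in control stimulated and 1020.03 in control unstimulated Th2-1st cells. Its lowest and highest signals were an unstimulated Th2-4th array and a GATA3 siRNA Th2-1st array.

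Whether GATA3 knockdown altered the transcripts of these chromatin regulators was read from GATA3 siRNA over control siRNA in stimulated cells. None of the 10 genes was past 2-fold in either culture, in data where Gata3 itself was. In Th2-4th cells 0 of 10 were past 2-fold, against 21.2% of all 18194 genes and 6.49% of the 11045 genes above the array median on 1 array or both. In Th2-1st cells 0 of 10 were past 2-fold, against 20.8% of all genes and 6.67% of the 10981 genes above the median. With 10 genes, a count of 0 is near what a background of 6.49% or 6.67% leaves, and it is not a result about these genes.

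The log2 ratios of GATA3 siRNA over control siRNA lay between -0.32 and 0.50 in Th2-4th cells (median -0.02, all genes 0.01), with 5 of 10 below 0. In Th2-1st cells they lay between -0.32 and 0.43 (median 0.02, all genes 0.05), with 4 of 10 below 0. At their leading probe sets the 3 PRC2 genes stayed within 0.19 of 0 on the log2 scale in both cultures. Ezh2 was -0.19 in Th2-4th and -0.15 in Th2-1st cells, beside spreads of 0.24 and 0.14. Suz12 was 0.02 in Th2-4th and 0.03 in Th2-1st cells, and Eed was -0.13 in Th2-4th and 0.10 in Th2-1st cells. The 6 Suz12 probe sets, all above the array median, ranged from -0.35 to 0.15 in Th2-4th and from -0.58 to 0.07 in Th2-1st cells, and the -0.58 lay past the spread of its signal (0.28).

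Rnf2 was the 1 gene whose GATA3 siRNA signal exceeded the control by more than the spread in both cultures at the leading probe set. Its log2 ratio was 0.42 in Th2-4th cells (spread 0.23) and 0.27 in Th2-1st cells (spread 0.17). Its second bright probe set gave 0.46 in Th2-4th and 0.09 in Th2-1st cells, so the ratio in Th2-1st cells rests on 1 probe set. Bmi1 was 0.03 in Th2-4th and -0.32 in Th2-1st cells (spread 0.17 in the Th2-1st pair), and its second probe set gave 0.17 in Th2-4th and -0.25 in Th2-1st cells.

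Both MLL genes had ratios smaller than their spreads. Kmt2a was -0.07 in Th2-4th and -0.18 in Th2-1st cells, and Men1 was -0.06 in Th2-4th and -0.08 in Th2-1st cells. The knockdown pairs therefore held no ratio past the spread for these genes at their leading probe sets. The second Kmt2a probe set gave -0.51 in Th2-4th and 0.14 in Th2-1st cells. For Ep300 the log2 ratio was 0.21 in Th2-4th cells (spread 0.25) and 0.00 in Th2-1st cells.

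At the leading probe sets the largest ratios were those of the NuRD genes, Chd4 in Th2-4th and Mta2 in Th2-1st cells. Chd4 had a log2 ratio of 0.50 in Th2-4th cells at the leading probe set (spread 0.23), but -0.79 and -0.22 at its other probe sets, a gap of 1.29 between the extremes. In Th2-1st cells the 3 Chd4 probe sets lay between -0.26 and 0.10. Mta2, with 1 probe set, was lower with GATA3 siRNA in Th2-4th cells (-0.32, spread 0.27) and higher with GATA3 siRNA in Th2-1st cells (0.43, spread 0.22).

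**Figure D2:**
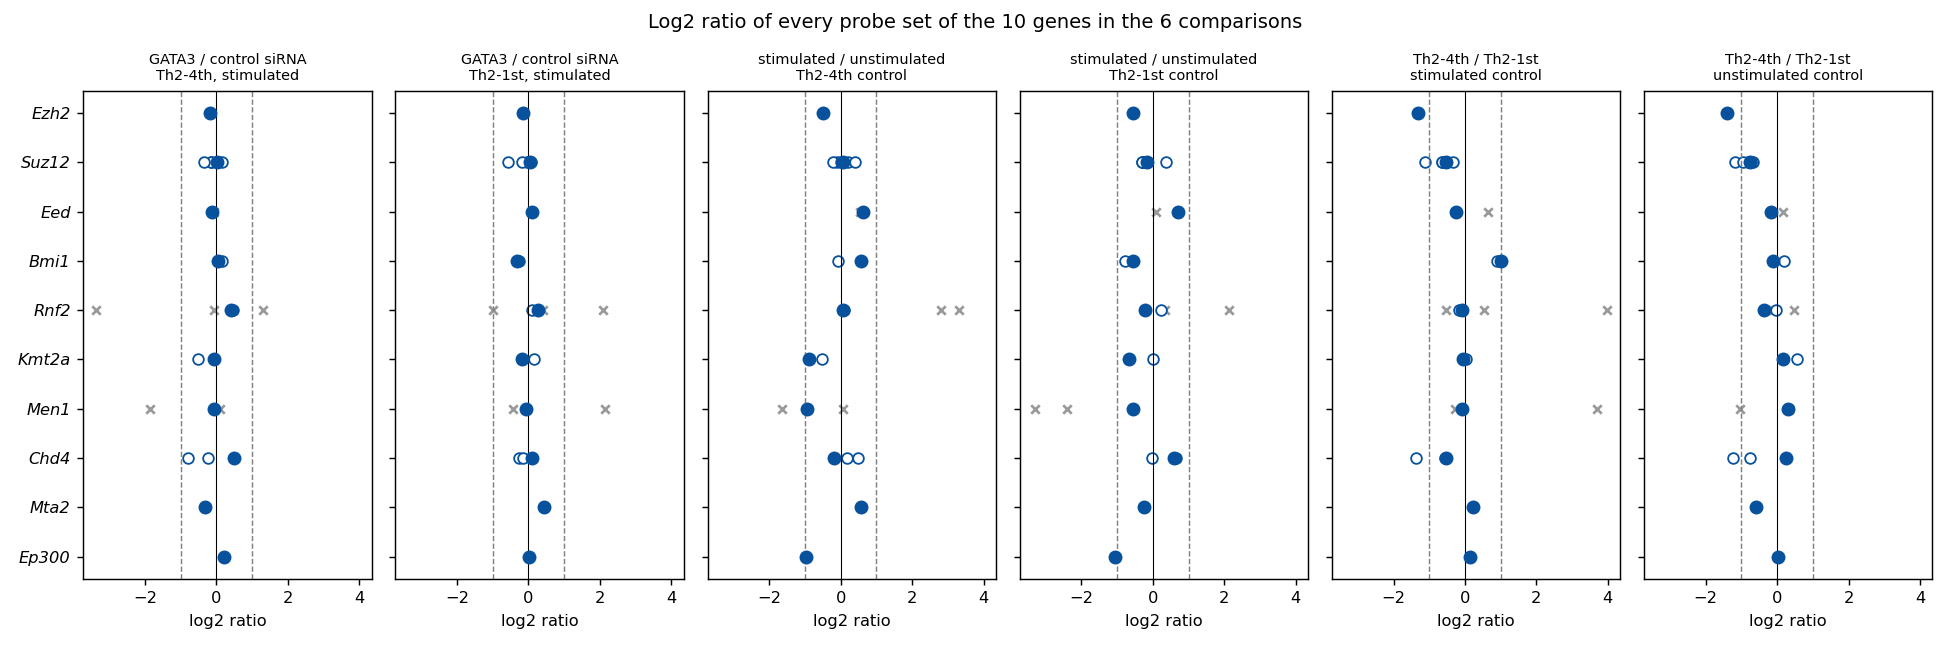
Log2 ratio of every probe set of the 10 genes (rows) in the 6 comparisons (panels; horizontal axis, log2 ratio). Filled circles are the brightest probe set of a gene, open circles other probe sets above the array median on all 6 arrays, grey crosses the dimmer ones and dashed lines the 2-fold limits; in the GATA3 siRNA panels all circles lie between -0.79 and 0.50, and Ezh2 is left of the limit in both Th2-4th over Th2-1st panels.

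The effect of receptor stimulation was read from stimulated over unstimulated control cells, pairs that share their stimulated control array with the knockdown pairs above. At the leading probe sets Ep300, Men1, Kmt2a and Ezh2 were lower after stimulation in both cultures and Eed was higher. All were short of 2-fold except Ep300 in Th2-1st cells. The count past 2-fold in Th2-4th cells was 0 of 10 genes, against 40.3% of all genes and 35.6% of the 11186 genes above the median. In Th2-1st cells 1 of 10, Ep300, was past 2-fold and lower, against 16.9% of all genes that were lower past 2-fold and 34.4% in either direction (27.4% of the 11022 genes above the median). The 10 genes were thus past 2-fold no more often than genes at large in either culture.

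For Ep300 the log2 ratio of stimulated over unstimulated cells was -0.97 in Th2-4th and -1.07 in Th2-1st cells, with spreads of 0.85 and 0.70. Men1 was -0.94 in Th2-4th and -0.55 in Th2-1st cells, and Kmt2a was -0.89 in Th2-4th and -0.68 in Th2-1st cells. Both were within or close to their spreads, which were 0.91 in Th2-4th and 0.96 in Th2-1st cells for Men1 and 0.92 in Th2-4th and 0.66 in Th2-1st cells for Kmt2a. The second Kmt2a probe set gave -0.53 in Th2-4th and -0.00 in Th2-1st cells, so the lower Kmt2a signal in Th2-1st cells rests on the leading probe set.

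Among the PRC2 genes, Eed had a log2 ratio of 0.62 in Th2-4th and 0.70 in Th2-1st cells (spreads 0.78 and 0.50). Ezh2 ran the other way, with -0.48 in Th2-4th and -0.55 in Th2-1st cells (spreads 0.89 and 0.51). Suz12 was 0.07 in Th2-4th and -0.16 in Th2-1st cells, within the spread. All 3 were within their spreads in Th2-4th cells, and no difference between the genes was tested.

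Bmi1 was 0.57 in Th2-4th and -0.55 in Th2-1st cells, within spreads of 0.88 and 0.70, and its second probe set gave -0.07 in Th2-4th and -0.78 in Th2-1st cells. The opposite direction of Bmi1 in the cultures held at 1 of its 2 probe sets, and the difference between cultures was not tested. Rnf2 was 0.08 in Th2-4th and -0.22 in Th2-1st cells, and its second bright probe set gave 0.09 in Th2-4th and 0.23 in Th2-1st cells. Of the NuRD genes, Mta2 was 0.57 in Th2-4th and -0.24 in Th2-1st cells. Chd4 was -0.19 in Th2-4th and 0.59 in Th2-1st cells at its leading probe set, and all these ratios were within the spread. Another Chd4 probe set gave 0.50 in Th2-4th and 0.65 in Th2-1st cells. The last gave 0.19 in Th2-4th and -0.01 in Th2-1st cells. Over the 10 genes the median log2 ratio was -0.06 in Th2-4th cells, with 5 of 10 below 0 (all genes -0.10), and -0.39 in Th2-1st cells, with 8 of 10 below 0 (all genes -0.01).

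**Figure D3:**
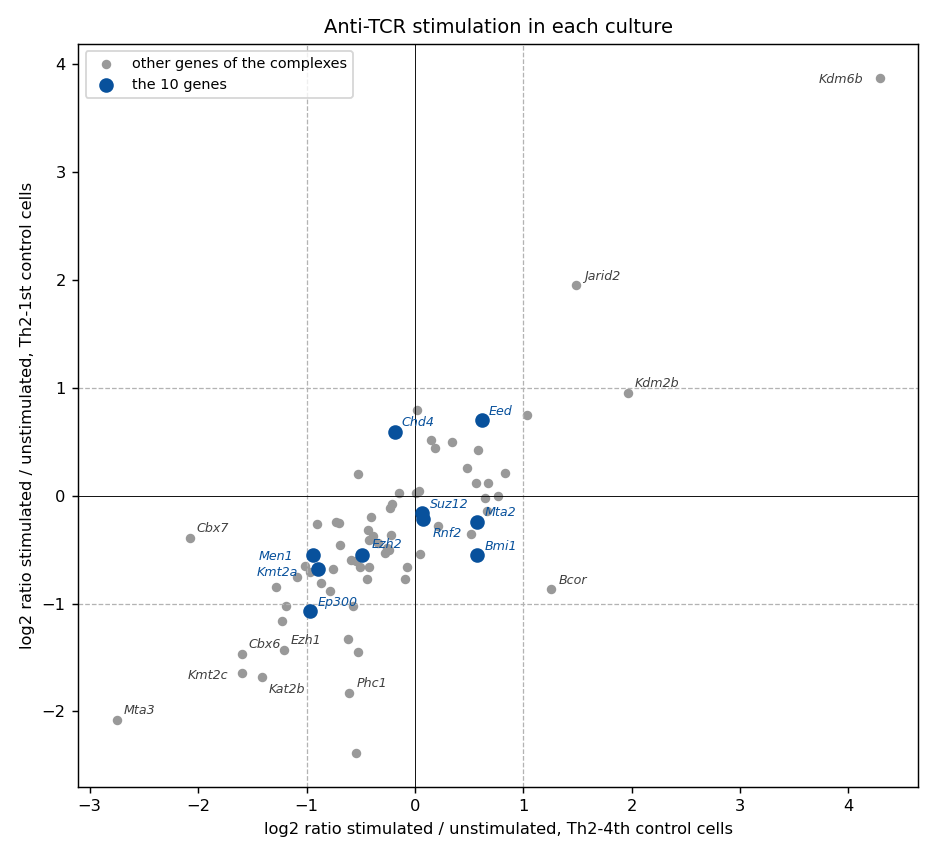
Log2 ratio of stimulated over unstimulated control cells in Th2-4th (horizontal axis) and Th2-1st cells (vertical axis) for the 10 genes (blue) and the 66 other genes of their complexes (grey), each by its brightest probe set. Dashed lines are the 2-fold limits; Kdm6b is at the upper right with 4.29 in Th2-4th and 3.87 in Th2-1st cells, and Mta3 at the lower left with -2.75 in Th2-4th and -2.08 in Th2-1st cells.

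The difference between the cultures was read from control siRNA cells, as Th2-4th over Th2-1st, in pairs made of the same control arrays as the stimulation pairs. Ezh2 was the 1 gene of the 10 that was past 2-fold in both the stimulated and the unstimulated pair, at 0.400 and 0.381 of its Th2-1st signal. In unstimulated cells 1 of 10 genes was past 2-fold and lower in Th2-4th cells, against 12.3% of all genes that were lower and 31.8% in either direction (21.1% of the 10872 genes above the median). In stimulated cells 1 of 10 was lower and 1, Bmi1, was higher in Th2-4th cells, against 12.7% lower and 17.2% higher among all genes and 29.9% in either direction (19.3% of the 11130 genes above the median). Both counts are close to the background, so they mark no excess among the 10 genes.

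Ezh2 had a log2 ratio of -1.32 in stimulated cells (spread 0.53) and -1.39 in unstimulated cells (spread 0.63). Suz12 was -0.54 in stimulated and -0.77 in unstimulated cells, short of 2-fold at the leading probe set. Its 6 probe sets were all lower in Th2-4th cells, from -1.13 to -0.35 in stimulated and from -1.17 to -0.67 in unstimulated cells. Eed, by contrast, was -0.25 in stimulated and -0.17 in unstimulated cells, both within the spread.

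Genes of the cell cycle were lower in Th2-4th cells in the same pairs. Of 19 measured, 17 were lower past 2-fold in stimulated cells (median log2 ratio -1.72) and 15 in unstimulated cells (median -1.57), and none was higher past 2-fold. Their summed signal was 53445 in GATA3 siRNA, 47502 in control stimulated and 76105 in control unstimulated Th2-4th cells, against 131524 in GATA3 siRNA, 136718 in control stimulated and 178269 in control unstimulated Th2-1st cells. The part of this difference in the Ezh2 and Suz12 ratios was not tested. Mcpt8 was higher in Th2-4th cells, and which cells gave its signal was not tested either. The exposure to IL-4 and the age of the cultures cannot be told apart.

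Bmi1 was 1.01 on the log2 scale in stimulated cells (spread 0.56) and -0.12 in unstimulated cells, so the cultures differed for it after stimulation and hardly before. The second probe set gave 0.90 in stimulated and 0.19 in unstimulated cells, the first of these short of 2-fold. The remaining genes were within 2-fold at their leading probe sets. Rnf2 was -0.07 in stimulated and -0.37 in unstimulated cells, and Kmt2a was -0.06 in stimulated and 0.16 in unstimulated cells. Men1 was -0.09 in stimulated and 0.30 in unstimulated cells, and Ep300 was 0.14 in stimulated and 0.04 in unstimulated cells, near equal in the 2 cultures.

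The NuRD genes again gave mixed readings. Chd4 was -0.52 in stimulated and 0.26 in unstimulated cells at its leading probe set, whereas another probe set was -1.38 stimulated and -1.23 unstimulated, lower past 2-fold, and the last was -0.56 stimulated and -0.77 unstimulated. Mta2 was 0.21 in stimulated and -0.61 in unstimulated cells. Over the 10 genes the median was -0.08 in stimulated cells (all genes 0.10) and -0.15 in unstimulated cells (all genes 0.17).

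**Figure D4:**
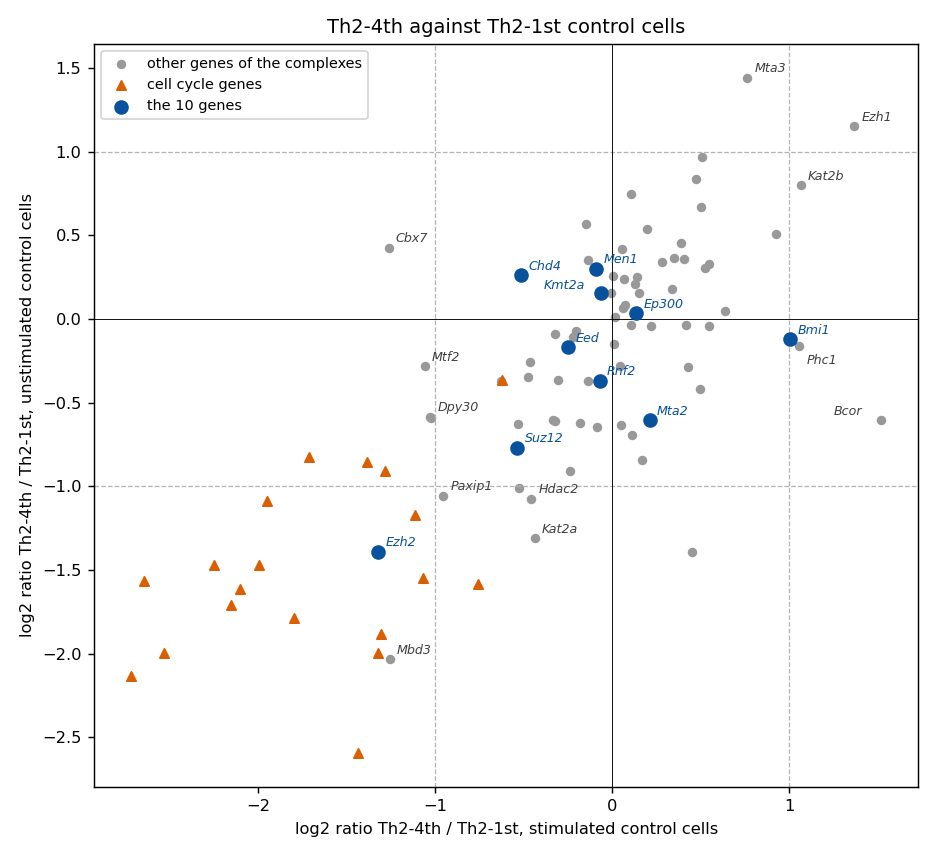
Log2 ratio of Th2-4th over Th2-1st in control siRNA cells, stimulated (horizontal axis) and unstimulated (vertical axis), for the 10 genes (blue circles), the 66 other genes of their complexes (grey circles) and 19 cell cycle genes (orange triangles). Dashed lines are the 2-fold limits; Ezh2, at -1.32 stimulated and -1.39 unstimulated, lies among the cell cycle genes at the lower left, and Ezh1 at the upper right with 1.37 stimulated and 1.15 unstimulated.

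The other genes of the same complexes and of opposing enzymes gave the setting for these values, and 66 of 69 listed genes had a probe set of their own. With GATA3 siRNA 0 were lower and 1 was higher past 2-fold in each culture, against 10.6% lower and 10.6% higher among all genes in Th2-4th cells and 7.49% lower and 13.3% higher in Th2-1st cells. These were Pcgf2 in Th2-4th cells (51.6 with GATA3 siRNA and 23.5 with control siRNA) and Ezhip in Th2-1st cells (14.2 with GATA3 siRNA and 5.44 with control siRNA), both at signals below the array median. The medians were -0.00 in Th2-4th and -0.01 in Th2-1st cells. Ratios ran from -0.90 to 1.13 in Th2-4th and from -0.62 to 1.38 in Th2-1st cells, wider than those of the 10 genes. Above the array median on 1 array or both were 64 of the 66 genes in Th2-4th and 63 in Th2-1st cells. None of these was past 2-fold, against 6.49% of all such genes in Th2-4th and 6.67% in Th2-1st cells.

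Stimulation separated them more. In Th2-4th cells 11 of 66 were lower and 5 higher past 2-fold (median -0.39), and in Th2-1st cells 12 were lower and 2 higher (median -0.42), beside all-gene medians of -0.10 and -0.01. Of all genes, 21.6% were lower and 18.7% higher past 2-fold in Th2-4th cells, and 16.9% lower and 17.5% higher in Th2-1st cells. Of the genes above the median, 35.6% in Th2-4th and 27.4% in Th2-1st cells were past 2-fold in either direction. Kdm6b, which encodes a demethylase that removes the PRC2 mark, had 9273 in stimulated and 473 in unstimulated Th2-4th cells, and 4879 in stimulated and 333 in unstimulated Th2-1st cells. Its log2 ratio was 4.29 in Th2-4th and 3.87 in Th2-1st cells, and all 3 of its probe sets were higher past 2-fold in both cultures. Jarid2, a cofactor that brings PRC2 to its targets, had 2612 in stimulated and 929 in unstimulated Th2-4th cells (log2 ratio 1.49), and 1836 in stimulated and 476 in unstimulated Th2-1st cells (log2 ratio 1.95). Both genes thus moved past 2-fold the same way in the 2 cultures.

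Of PRC1 cofactors, Kdm2b, whose protein binds CpG islands, had 11105 in stimulated and 2845 in unstimulated Th2-4th cells (log2 ratio 1.96). In Th2-1st cells Kdm2b was also higher, short of 2-fold (9877 in stimulated and 5102 in unstimulated cells, log2 ratio 0.95). Bcor, a corepressor in 1 form of PRC1, was higher in stimulated Th2-4th cells (2369 against 991 unstimulated, log2 ratio 1.26) and lower in stimulated Th2-1st cells (827 against 1509 unstimulated, log2 ratio -0.87), at all 3 of its probe sets in each case. That contrast was not tested. Cbx7, a reader of the PRC2 mark, was lower past 2-fold in stimulated Th2-4th cells (log2 ratio -2.08) and short of it in Th2-1st cells (-0.39). Cbx6 was lower past 2-fold in both, with -1.60 in Th2-4th and -1.46 in Th2-1st cells. Phc1 was lower past 2-fold in stimulated Th2-1st cells (-1.82) and short of it in Th2-4th cells (-0.60).

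Mta3, a paralog of Mta2, was the lowest of the NuRD genes after stimulation, with 480 in stimulated and 3239 in unstimulated Th2-4th cells (log2 ratio -2.75) and 283 in stimulated and 1193 in unstimulated Th2-1st cells (-2.08). Of its 3 probe sets 2 were past 2-fold in each culture. Kmt2c, an MLL-family methyltransferase gene, was -1.60 in Th2-4th and -1.65 in Th2-1st cells, the same side as Kmt2a but past 2-fold. Kat2b, an acetyltransferase gene, was -1.68 in Th2-1st cells. All 8 acetyltransferase genes listed beside Ep300 were below 0 there, 1 of them past 2-fold, against 9197 of all 18194 genes below 0. In Th2-4th cells Kat2b was lower past 2-fold as well, with 1550 in stimulated and 4125 in unstimulated cells.

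Between the cultures 5 of 66 were lower and 4 higher past 2-fold in stimulated Th2-4th cells (median 0.06), and 6 were lower and 2 higher in unstimulated Th2-4th cells (median -0.04). The shares of all genes were 12.7% lower and 17.2% higher in the stimulated pair, and 12.3% lower and 19.5% higher in the unstimulated pair. Of the genes above the median, 19.3% in the stimulated and 21.1% in the unstimulated pair were past 2-fold in either direction. Ezh1 ran opposite to Ezh2, with 730 in stimulated Th2-4th against 283 in stimulated Th2-1st cells (log2 ratio 1.37) and 1690 in unstimulated Th2-4th against 761 in unstimulated Th2-1st cells (1.15). Its 3 fainter probe sets did not all follow, and 2 of them were lower in stimulated Th2-4th cells (-1.03, and -3.70 at signals below the array median). In the unstimulated pair these 3 were 0.21, 0.80 and 0.75, short of 2-fold. Mbd3, a NuRD subunit, was lower in Th2-4th cells both stimulated (317 against 759 in Th2-1st, log2 ratio -1.26) and unstimulated (186 against 761 in Th2-1st, -2.03). These 2 genes were the ones past 2-fold in both pairs, in opposite directions.

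In 1 pair only, Bcor (1.52), Kat2b (1.06) and Phc1 (1.06) were higher past 2-fold in stimulated Th2-4th cells. Lower past 2-fold there were Cbx7 (-1.26), Mtf2 (-1.06), a PRC2 cofactor, Dpy30 (-1.03), a shared MLL subunit, and Psip1 (-1.02). In unstimulated Th2-4th cells Mta3 (1.44) was higher past 2-fold. The acetyltransferase gene Kat2a (-1.31), the deacetylase gene Hdac2 (-1.07), the MLL cofactor gene Paxip1 (-1.06) and the PRC1 gene Pcgf5 (-1.01) were lower. Paxip1 was close to the limit in the stimulated pair too (-0.96). In the unstimulated pair all 4 Paxip1 probe sets were lower past 2-fold, while 1 of 3 had the call of the gene for Kat2a and 1 of 3 for Mta3. In the stimulated pair 1 of 3 had it for Cbx7 and 1 of 6 for Mtf2.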

How the data were processed

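RNA of 6 samples was hybridised to Affymetrix Mouse Genome 430 2.0 arrays, 1 per condition. For each probe set the authors deposited a linear signal intensity from the Affymetrix Expression Console, with version and algorithm not given in the sources used here. Their mean without the top and bottom 2% is equal on every array, as after a common scaling. No detection call or background value was used here. The platform annotation gave 1 gene for 34958 of 45101 probe sets, and 34754 of these (99.4%) matched a RefSeq gene. Each of the 18194 genes was represented by its brightest probe set (mean log2 signal over the 6 arrays).

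From these intensities log2 ratios were computed for 6 array pairs (Python 3.11.15, pandas 2.3.3, numpy 2.4.6), with 0.5 and 2 as limits and no filter on low signals. The counting was tested on simulated data. Spreads are 1.4826 times the median absolute deviation among 500 genes.

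The 10 genes, the gene lists and the motifs were chosen with earlier results of these data known. Named besides the 10 were listed genes past 2-fold with 1 signal of the pair above the array median, at most 4 per comparison and direction, the 5 genes most like Ezh2, and Gata3. Pcgf2, Ezhip, Psip1, Pcgf5 and, in some pairs, Kdm2b, Bcor, Cbx6, Cbx7, Phc1, Kat2b and Paxip1 were named after their values were seen. The lists of Th2, CD8 T and NK cell, myeloid, and mast cell and basophil markers had 4 to 5 of 5, 2 to 3 of 4, 2 to 3 of 6 and 0 to 2 of 5 measured genes above the array median. The 8 reference genes had median log2 ratios from -0.20 to 0.25. In the unstimulated culture pair the single reference genes ran from -0.34 to 1.001, with 1 past 2-fold. Alternatives varied the probe set, the scaling, the treatment of low signals and the pseudocount. Single arrays limit the precision.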

Additional observations from a re-analysis of the deposited data

Results flagged for a closer look

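Mta2 stood on opposite sides of 0 in the 2 cultures, by more than the spread of genes of like signal in each. The log2 ratio of GATA3 siRNA over control siRNA was -0.32 in Th2-4th cells (800.5 with GATA3 siRNA and 999 with control siRNA, spread 0.27) and 0.43 in Th2-1st cells (1159 with GATA3 siRNA and 862 with control siRNA, spread 0.22). The difference, Th2-4th minus Th2-1st, was -0.75, against a median of -0.05 over all genes. It was not tested, rests on 1 probe set and 1 array per condition, and was found among 10 genes.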

How the results depend on the processing

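Ezh2 was past 2-fold in both Th2-4th over Th2-1st pairs under all 8 alternatives (log2 ratio -1.56 to -1.23 stimulated, -1.64 to -1.39 unstimulated), and Ep300 under all 8 in stimulated Th2-1st cells (-1.07 to -1.03). Each of these genes has 1 probe set, above the array median on all 6 arrays. The alternatives that vary the probe set or the treatment of low signals thus could not move their ratios, and only the scaling and the pseudocount could. Bmi1 in the stimulated culture pair was past 2-fold under 6 of 8 and fell short with centred arrays (0.77) and with the mean over probe sets.

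Taking the probe set with the largest ratio put 2 of 10 genes past 2-fold with GATA3 siRNA in each culture (Rnf2 and Men1, through dim probe sets, with the sign turned for Rnf2 at -3.35 in Th2-4th and Men1 at 2.15 in Th2-1st cells) and moved the Th2-4th median to -0.33. It gave 2 genes after stimulation in Th2-4th and 3 in Th2-1st cells, and 6 in the stimulated and 4 in the unstimulated culture pair. Past 2-fold, the sign also turned for Rnf2 after stimulation in Th2-1st cells (2.14) and for Rnf2 (3.98) and Men1 (3.70) in the stimulated culture pair. In the unstimulated culture pair it turned for Men1 (-1.05) and Chd4 (-1.23). Short of 2-fold the sign turned for further genes. Among these, through bright probe sets, were Chd4 with GATA3 siRNA in Th2-4th cells (-0.79) and Suz12 with GATA3 siRNA in Th2-1st cells (-0.58). The mean over probe sets gave 1 gene after stimulation in Th2-4th and 2 in Th2-1st cells, and turned Men1 to 1.11 in the stimulated culture pair. Centring each array on its median shifted the median of all genes by -0.17 (GATA3 siRNA, Th2-1st), -0.24 (cultures, stimulated) and -0.25 (cultures, unstimulated). With it the median of the 10 genes for GATA3 siRNA in Th2-1st cells was -0.15, and 1 gene was past 2-fold in the stimulated and 2 in the unstimulated culture pair, where Suz12 reached -1.02. Quantile normalization shifted the unstimulated culture pair by -0.15.

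For the other 66 genes, the largest ratio put 9 past 2-fold with GATA3 siRNA in Th2-4th and 10 in Th2-1st cells, 29 after stimulation in Th2-4th and 25 in Th2-1st cells, and 19 in the stimulated and 21 in the unstimulated culture pair. With GATA3 siRNA, 2 were past 2-fold in each culture without probe sets that can cross-hybridise, and 2 in Th2-4th cells with the mean over probe sets. The count was 0 in each culture with signals under the array median raised to it, with only genes above it, or with a pseudocount of 16, and 0 in Th2-1st cells with quantile normalization. The alternatives for these 66 genes were chosen after seeing the data. No paired analysis was possible because each condition has 1 array.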

Other observations

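The genes whose signals over the 6 arrays most resembled those of Ezh2, out of 8851 genes above the array median on all 6, were Cdc7, Hrob, Phpt1, Ticrr and Eri1. Their root mean square difference from the centred log2 profile of Ezh2 was 0.0578, 0.0920, 0.0936, 0.105 and 0.109 in that order, against a median of 0.83 over the genes searched. Cdc7, a kinase gene of replication origin firing, had 625 in GATA3 siRNA, 698 in control stimulated and 931 in control unstimulated Th2-4th cells, and 1472 in GATA3 siRNA, 1744 in control stimulated and 2702 in control unstimulated Th2-1st cells. Of the other 9 genes Suz12 was the nearest to Ezh2, at 0.46 and rank 674, and Bmi1 the farthest, at 1.13. The resemblance is a description over 6 arrays that share the 2 cultures.

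Kdm2b was lower with GATA3 siRNA in Th2-4th cells (5970 with GATA3 siRNA and 11105 with control siRNA, log2 ratio -0.90), and its second probe set was past 2-fold (-1.12). In Th2-1st cells the log2 ratio was -0.32 (7936 with GATA3 siRNA and 9877 with control siRNA). Kdm2b was singled out after its values were seen, and the difference between the cultures was not tested.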
